A study of Mus musculus with 24 samples.

Results

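Primary mouse alveolar type II cells, the cuboidal lung cells that make and recycle surfactant, were compared after 24 h and after 6 h in culture with vehicle alone. The comparison holds the 8 arrays titled as vehicle, 4 at 24 h and 4 at 6 h, of 24 arrays in the series, and they were chosen by title and not by any measured value. Before the vehicle was added, the cells had been isolated from mouse lungs and had grown for 3 days on an air-liquid interface until they formed a monolayer. The vehicle was DMEM, a culture medium, and these cells received no donor of hydrogen sulfide. A further 8 arrays of the same experiment held cells given NaHS at 100 µM, a fast hydrogen sulfide donor, for 24 h or 6 h. They helped to estimate the spread between arrays, and their own time difference is given beside that of vehicle. The 8 arrays of the other experiment, with the slow donor GYY4137, were not used. The labels used here give no strain, age or sex of the mice and no time point before vehicle was added. Nothing says that the 4 replicates of a group came from separate animals or cultures, so p-values measure the spread between these samples, which may be technical.

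Type II cells divide little in the adult lung and can enter the cell cycle after injury, and in plastic culture they are known to lose surfactant gene expression and to flatten towards a type I shape. Cells that leave the cycle shut off the genes of DNA replication and mitosis together, through E2F and DREAM repressor complexes on their promoters, and the inhibitors p21, p16 and p15 sit upstream of that switch. Lysosomes are unusually active in type II cells, whose lamellar bodies are lysosome-related organelles, and many lysosomal genes share a promoter element read by TFEB and its relatives.

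Total RNA had been labelled with Cy3 and hybridised to 1-colour Agilent arrays. Values are log2 processed signal minus the 75th percentile of the same array, so 0 marks that percentile and a difference of 1 is a 2-fold change; no level is set against the level of another gene. Replicates 1 and 3 of every group lay on slide 1 and replicates 2 and 4 on slide 2, and slide was a block in the fit. The share of probes detected above background was 54.8% to 57.3% on slide 1 arrays and 67.7% to 73.9% on slide 2 arrays, and 16754 of 33261 genes or unnamed probes differed between slides. All 24 h arrays lay in row 2 of a slide and all 6 h arrays in row 1, so time and row cannot be told apart. Among the 8 vehicle arrays, replicate 4 at 6 h stood apart on the second principal component, which carried 9.94% of the variance, with 91.1 against -62.0 to 36.9 on the other 7. It had higher levels of alveolar and ciliated cell genes than the other 6 h arrays. Of 33 tested type II genes 31 lay above background on all 8 vehicle arrays, where 68.3% of all tested did. The same held for 33 of 34 type I, 32 of 35 smooth muscle and pericyte, 24 of 39 ciliated and 7 of 18 lymphocyte genes. The count therefore does not single out type II cells.

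Between 24 h and 6 h in vehicle, 705 of 33261 genes or unnamed probes passed an adjusted p of 0.05 (limma with Benjamini-Hochberg adjustment), which is 2.12% of those tested. Higher at 24 h were 401 (1.21%) and lower were 304 (0.914%), while the median over all tested was 0.01. At least a 2-fold change was reached by 65 of the risen and by 43 of the fallen. All 705 had the same sign on slide 1 and on slide 2, against 57.1% of all tested. The 705 were chosen by a test on these same arrays, which favours that agreement. The count depended on single arrays: it was 37 without 24 h replicate 1, 150 without 6 h replicate 1, 222 without 24 h replicate 2, 249 without 6 h replicate 4, 304 without 6 h replicate 3, 318 without 24 h replicate 3 and 412 without 24 h replicate 4, and 828 without 6 h replicate 2. When limma was fitted to the 8 vehicle arrays alone, 0 genes passed and the lowest adjusted p was 0.201. That fit gave 3869 genes an unadjusted p below 0.05. It takes the same differences from the same 8 arrays, so the sign of the 705 is no separate evidence. Without the slide block 203 passed. In each of the 8 fits without 1 array all 705 genes had their sign and an unadjusted p under 0.05, and 36 passed the adjusted threshold in every one, 27 higher and 9 lower at 24 h. These fits share most of their arrays with the fit that chose the genes, so they are no separate evidence. Named genes among those 36 are Cd53, Notch3, Cpq, Mgmt, Zmat3, Eda2r, Isg15 and Gabrb1 among the higher ones and Brip1, H3c1, Cilp and Sftpa1 among the lower ones.

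The 12 genes that the results turn on are plotted for all 8 arrays.

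**Figure D1:**
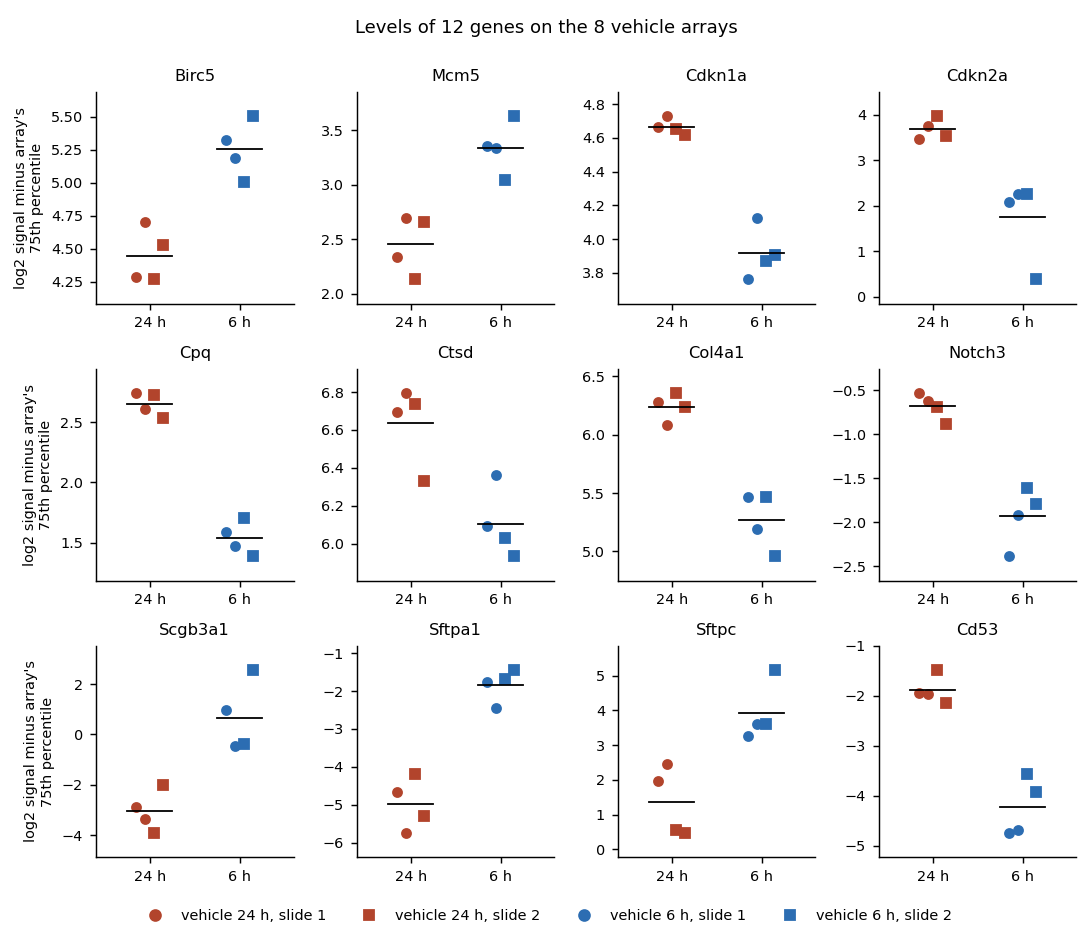
Each panel plots the log2 signal minus the array's 75th percentile of 1 gene on the 4 vehicle 24 h arrays (left, red) and the 4 vehicle 6 h arrays (right, blue), with circles for slide 1, squares for slide 2 and a bar at the mean of 4. Both times are apart for 11 genes, while Ctsd at 24 h reaches down to 6.33, below the highest 6 h array at 6.36, and Sftpc did not pass the adjusted threshold.

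Many genes of cell division fell. Of 88 tested genes for mitotic kinases, cyclins and spindle parts, 43 fell and 0 rose, where 0.914% of all tested fell, with a median log2 difference of -0.71, and 82 of 88 were lower at an unadjusted p under 0.05 where 7.52% of all tested were. Birc5, which encodes survivin of the chromosomal passenger complex, read 4.29, 4.27, 4.70 and 4.53 at 24 h, against 5.32, 5.01, 5.18 and 5.50 at 6 h (log2 difference -0.81 ± 0.16 (SE), adjusted p = 0.0274). Cdk1, the kinase that drives entry into mitosis, read 1.12, 1.11, 1.36 and 1.27 at 24 h, against 2.003, 1.69, 1.79 and 2.27 at 6 h (log2 difference -0.72 ± 0.16 (SE), adjusted p = 0.0358). For both genes every 24 h array lay below every 6 h array. Aurka, the centrosomal Aurora A kinase, read 2.71, 2.59, 2.95 and 2.72 at 24 h, against 3.73, 3.11, 3.50 and 3.55 at 6 h (log2 difference -0.73 ± 0.12 (SE), adjusted p = 0.0161), again without overlap. Ccnb2, a cyclin partner of Cdk1, had a log2 difference of -0.71, Foxm1, the transcription factor of mitotic genes, -0.77, Bub1b of the spindle checkpoint -0.75, and Kif23, a kinesin of the midbody, -0.93. The largest fall in the list was -1.12 for Depdc1b, and among the phosphatases that activate Cdk1, Cdc25c was -0.81 and Cdc25b -0.76. Mki67, the usual marker of cycling cells, was -0.66 and did not pass (adjusted p = 0.105). In bulk RNA, fewer dividing cells and less of these RNAs in each cell cannot be told apart.

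The median of the mitotic list was -0.71 on slide 1 and -0.67 on slide 2. Leaving out 1 vehicle array at a time moved its median between -0.81 and -0.60. The count of fallen members ran from 0 without 24 h replicate 1, 3 without 6 h replicate 1, 5 without 24 h replicate 2 and 6 without 6 h replicate 4 to 63 without 6 h replicate 2.

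Promoters of fallen mitotic genes often held the CHR, the hexamer TTTGAA that DREAM complexes read. The 120 bases just before the RefSeq gene start (GRCm38.p6) are shown for 5 fallen mitotic genes that hold a CHR there. They have the smallest p among those with a promoter sequence, after genes of a single chromosome had been left out of the choice. The CHR is in capitals, as TTTGAA or, where it lies on the other strand, TTCAAA.
Ska3, chr14:57826164-57826283, minus strand: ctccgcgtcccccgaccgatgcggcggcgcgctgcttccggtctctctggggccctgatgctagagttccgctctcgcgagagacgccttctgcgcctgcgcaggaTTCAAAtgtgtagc
Kif2c, chr4:117178773-117178892, minus strand: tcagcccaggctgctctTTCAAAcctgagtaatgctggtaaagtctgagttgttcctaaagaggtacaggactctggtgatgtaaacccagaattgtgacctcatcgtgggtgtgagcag
Cdca5, chr19:6084977-6085096, plus strand: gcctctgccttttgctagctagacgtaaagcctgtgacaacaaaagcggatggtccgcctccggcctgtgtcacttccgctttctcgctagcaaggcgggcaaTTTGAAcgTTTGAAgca
Ckap2l, chr2:129297213-129297332, minus strand: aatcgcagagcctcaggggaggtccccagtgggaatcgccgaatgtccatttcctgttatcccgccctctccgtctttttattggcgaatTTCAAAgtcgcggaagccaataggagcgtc
Kif22, chr7:127042421-127042540, minus strand: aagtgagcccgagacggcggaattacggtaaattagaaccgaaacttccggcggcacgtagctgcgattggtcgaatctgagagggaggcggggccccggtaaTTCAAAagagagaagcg
Ska3 encodes a subunit of the kinetochore's microtubule coupler, Kif2c and Kif22 are mitotic kinesins, Cdca5 is sororin, which protects sister chromatid cohesion, and Ckap2l is a spindle protein. Within these bases and counted from the gene start, the CHR nearest to it begins at -14 in Ska3, -103 in Kif2c, -9 in Cdca5, -30 in Ckap2l and -17 in Kif22, and Cdca5 holds 2.

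In a window of 250 bases before to 50 after the gene start, TTTGAA on either strand was found in 54 of 178 promoters of fallen genes (30.3%), against 18 of 251 of risen genes (7.17%) and 1911 of 14200 of all tested genes (13.5%). Near the start, from 60 bases before to 50 after, it stood in 19.1% of fallen, 1.59% of risen and 3.65% of all tested promoters. Within the mitotic list the share was 22 of 35 fallen members with a promoter (62.9%) and 47 of all 74 (63.5%), a like share in the fallen members and in the list as a whole. CCAAT, the letters bound by NF-Y, was present in 52.8% of fallen, 41.4% of risen and 38.6% of all tested promoters. Near the start it stood in 36.5%, 21.5% and 16.8%. Within the mitotic list CCAAT stood in 68.6% of fallen members and in 68.9% of all members with a promoter, again a like share. The E2F letters TTTGGCGC stood in 5.06% of fallen, 0.797% of risen and 0.817% of all tested promoters. TTTCGCGC stood in 2.25%, 0.398% and 0.507%, and TTCCCGCC in 6.18%, 1.59% and 3.44%. Among replication genes, TTTGGCGC stood in 21.4% of fallen members and 16.2% of all members with a promoter. For TTTCGCGC these shares were 7.14% and 13.5%, and for TTCCCGCC 21.4% and 18.9%. The CHR variant TTCGAA was found in 5.06% of fallen, 2.79% of risen and 1.93% of all tested promoters. In all, 13 motifs were searched. The p53 half-site stood in 8.99% of fallen, 8.37% of risen and 7.37% of all tested promoters. For AP-1 the shares were 5.06%, 5.18% and 6.1%, and for the interferon response letters 2.81%, 1.59% and 3.23%. For TGATGNAA they were 2.25%, 3.59% and 2.79%, and for the CArG box 1.69%, 1.2% and 1.43%. The antioxidant response letters stood in 44.4%, 49.8% and 42.5%. These shares describe the letters in the window and were not tested.

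**Figure D2:**
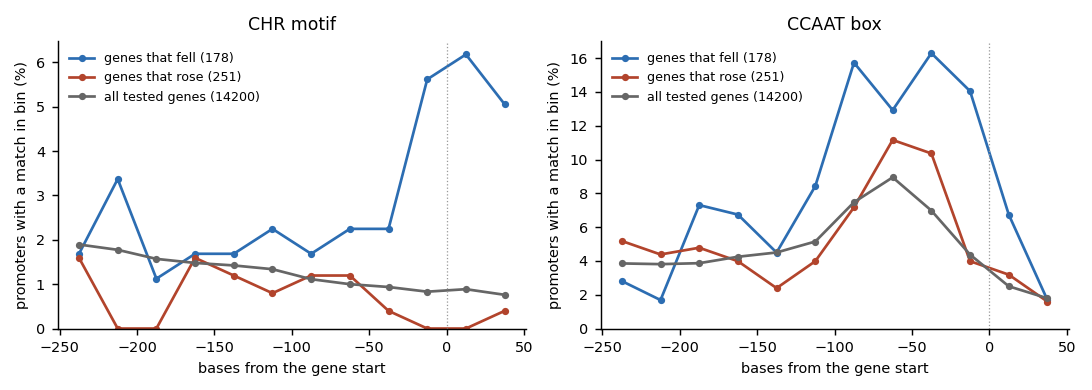
The share of promoters with a motif match in each bin of 25 bases (vertical, percent) is plotted against distance from the gene start (horizontal, bases) for the CHR (left) and the CCAAT box (right), in genes that fell (blue), genes that rose (red) and all tested genes (grey). Near the start the CHR line of the 178 fallen genes lies above that of all 14200 tested: from 60 bases before to 50 after, 19.1% of fallen and 3.65% of all tested promoters hold it.

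Replication genes fell too. Of 46 tested licensing and DNA synthesis genes 18 fell and 0 rose, where 0.914% of all tested fell, with a median of -0.45. At an unadjusted p under 0.05, 37 were lower, where 7.52% of all tested were. Mcm5, a subunit of the helicase that opens origins, read 2.34, 2.13, 2.70 and 2.66 at 24 h, against 3.35, 3.04, 3.33 and 3.62 at 6 h (log2 difference -0.88 ± 0.17 (SE), adjusted p = 0.0224). The 24 h arrays all lay below the 6 h arrays. Asf1b, a chaperone that loads histones behind the fork, was -0.87, Prim1, the primase, -0.74, Uhrf1, which carries DNA methylation across replication, -0.71, and Rrm2, the ribonucleotide reductase subunit that makes deoxynucleotides, -0.69. Pcna, the sliding clamp, had the smallest called difference of the list, -0.41 (adjusted p = 0.03). The list's median stayed between -0.47 and -0.40 whichever vehicle array was left out, while its fallen members numbered 0 without 24 h replicate 1, 1 without 6 h replicate 1, 3 without 24 h replicate 2, 3 without 6 h replicate 4, and 22 without 6 h replicate 2.

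Repair and histone genes moved the same way in part. Among 44 genes of homologous recombination and Fanconi repair 5 fell and 0 rose, where 0.914% of all tested fell and 1.21% rose. The median was -0.38. Brip1, the helicase that works with BRCA1, read -3.30, -3.26, -3.08 and -3.20 at 24 h, against -2.004, -2.22, -2.31 and -2.13 at 6 h (log2 difference -1.04 ± 0.12 (SE), adjusted p = 0.006). Its groups are separated by more than the range within either, and it passed with any 1 vehicle array left out. Gen1, which cuts Holliday junctions, had a difference of -0.90, Ube2t, the ubiquitin-conjugating enzyme of the Fanconi pathway, -0.60, Hells, a chromatin remodeller, -0.56, and Blm, the Bloom helicase, -0.40. Of 29 clustered histone genes, 5 fell (H3c1, H3c8, H4c12, H2ac4 and H4c14) and 1 rose (H2bc6, 0.48), with a median of -0.32, and since these genes are near-identical copies their probes may share signal. H3c1 read -3.07, -3.04, -3.29 and -3.08 at 24 h, against -2.20, -2.55, -2.23 and -2.21 at 6 h (log2 difference -0.82 ± 0.12 (SE), adjusted p = 0.0123), with no overlap. The chromatin proteins Hmgb2 (-0.81) and Hmgb1 (-0.64, adjusted p = 0.0126) fell as well. The count of fallen repair genes was 1 without 24 h replicate 1 or 3 or 6 h replicate 1, 3 or 4, 2 without 24 h replicate 2, 4 without 24 h replicate 4 and 17 without 6 h replicate 2, with medians from -0.44 to -0.30.

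Several inhibitors of the cycle rose. Of 7 tested INK4 and KIP genes 3 rose and 1 fell, where 1.21% of all tested rose and 0.914% fell. Cdkn1a, which encodes p21, read 4.66, 4.65, 4.73 and 4.62 at 24 h, against 3.76, 3.87, 4.13 and 3.91 at 6 h (log2 difference 0.75 ± 0.12 (SE), adjusted p = 0.0135), a 1.68-fold rise with equal differences of 0.75 on both slides. Cdkn2a, the locus of p16 and Arf, read 3.48, 3.97, 3.76 and 3.54 at 24 h, against 2.08, 2.26, 2.26 and 0.39 at 6 h (log2 difference 1.94 ± 0.35 (SE), adjusted p = 0.0211). Replicate 4 at 6 h is far below the other 6 h arrays, and without it the difference was 1.50 (adjusted p = 0.0239). Cdkn2b, which encodes p15, read 5.22, 4.96, 5.13 and 5.06 at 24 h, against 4.32, 4.75, 4.27 and 3.50 at 6 h (log2 difference 0.89 ± 0.20 (SE), adjusted p = 0.0418), and without 6 h replicate 4 it was 0.64 with an adjusted p of 0.056. All 24 h arrays lay above all 6 h arrays for each of the 3. Without 24 h replicate 1 none of the 7 passed, and without 24 h replicate 2 or 6 h replicate 1 a single one did; Cdkn2b and Cdkn2c passed in 1 of the 8 fits that leave out an array, Cdkn2a in 5 and Cdkn1a in 7. Cdkn2c, which encodes p18 and is itself an E2F target, was -0.55 (adjusted p = 0.0373). Among 15 G1 cyclins and kinases with their pocket proteins 1 rose, the G1 cyclin gene Ccnd2 (log2 difference 0.81 ± 0.17 (SE), adjusted p = 0.0324), and 1 fell, Rbl1 (log2 difference -0.63 ± 0.14 (SE), adjusted p = 0.0345), whose product p107 is a DREAM subunit.

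Targets of p53 rose in part. Of 42 tested, 7 rose and 0 fell, where 1.21% of all tested rose. The median was 0.23, with 0.23 on slide 1 and 0.22 on slide 2. Zmat3, an RNA-binding growth inhibitor, read 3.38, 3.21, 3.28 and 3.11 at 24 h, against 2.66, 2.58, 2.80 and 2.67 at 6 h (log2 difference 0.57 ± 0.07 (SE), adjusted p = 0.00915). Eda2r, a death receptor of the TNF receptor family, read -2.44, -1.88, -2.50 and -2.25 at 24 h, against -3.79, -3.20, -3.30 and -3.20 at 6 h (log2 difference 1.10 ± 0.16 (SE), adjusted p = 0.0124). Both were higher on every 24 h array, and both passed with any 1 vehicle array left out. Ccng1, cyclin G1, had a difference of 0.52, Trp53inp1, a p53 partner in stress, 0.67, Sulf2, which trims heparan sulfate, 0.78, and Psrc1, a spindle protein, 0.63. Mdm2, the ligase that degrades p53, was 0.43 and did not pass (adjusted p = 0.059). The list's count was 2 without 24 h replicate 1, 3 without 6 h replicate 1, 4 without 24 h replicate 3 or 4 or 6 h replicate 3, 5 without 24 h replicate 2, and 7 without 6 h replicate 2 or 4, and its median lay between 0.19 and 0.26.

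Lysosomal genes rose in part. Of 83 tested, 21 rose and 0 fell, where 1.21% of all tested rose. A difference above 0 was seen in 76, where the median over all genes tested was 0.01. The list's median was 0.35, with 0.28 on slide 1 and 0.39 on slide 2. This list was added after its genes had been seen among the risen ones, so its count describes them and is no separate evidence. Cpq, which encodes the lysosome-associated peptidase PGCP, read 2.74, 2.72, 2.61 and 2.53 at 24 h, against 1.59, 1.70, 1.47 and 1.39 at 6 h (log2 difference 1.11 ± 0.09 (SE), adjusted p = 0.00048), a 2.16-fold rise. The smallest gap between the groups exceeds the range within each, and its adjusted p was the smallest of all genes. Glb1, the lysosomal beta-galactosidase whose activity is used as a senescence stain, read 3.02, 3.16, 2.96 and 2.97 at 24 h, against 2.45, 2.50, 2.40 and 2.54 at 6 h (log2 difference 0.55 ± 0.08 (SE), adjusted p = 0.0126). Hyal1, which degrades hyaluronan, read -0.07, -0.35, -0.19 and -0.38 at 24 h, against -1.57, -1.56, -1.31 and -0.86 at 6 h (log2 difference 1.08 ± 0.18 (SE), adjusted p = 0.0157). Neither overlaps between the times.

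Further hydrolases rose, Hexa by 0.66, Aga by 0.63, Naglu by 0.65 and Gaa, the acid glucosidase, by 0.77. The other Gaa probes gave 0.66 and 0.06. Of the cathepsins, the lysosomal proteases, Ctsf (0.62), Ctsa (0.61), Ctsd (0.53), Ctsb (0.45) and Ctsz (0.41) passed. Subunits of the proton pump that acidifies lysosomes rose too, Atp6v1e1 by 0.51 and Atp6v0d1 by 0.41. Tpp1, a tripeptidyl peptidase, read 1.44, 2.21, 1.46 and 1.45 at 24 h, against 0.70, 0.97, 0.86 and 0.86 at 6 h (log2 difference 0.79 ± 0.15 (SE), adjusted p = 0.0238), and replicate 2 at 24 h lies far above the rest. Without it the difference was 0.62 (adjusted p = 0.041). Grn, progranulin, was 0.63 with that array and 0.48 without it (adjusted p = 0.052). The list's count was 1 without 24 h replicate 1, 2 without 6 h replicate 1, 7 without 6 h replicate 4, 8 without 24 h replicate 2 or 6 h replicate 3, 9 without 24 h replicate 3, 16 without 24 h replicate 4 and 17 without 6 h replicate 2, with medians of 0.27 to 0.39.

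The CLEAR element, the site read by TFEB, was searched by its core TCACGTG on both strands. It is shown in capitals in the 120 bases before the start of 3 risen lysosomal genes that hold it there (RefSeq, GRCm38.p6). Only genes with a promoter sequence were searched, and the chromosome left out for the mitotic genes was left out here too.
Glb1, chr9:114400958-114401077, plus strand: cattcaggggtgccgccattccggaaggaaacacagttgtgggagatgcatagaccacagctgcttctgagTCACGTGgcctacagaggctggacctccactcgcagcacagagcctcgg
Ctsd, chr7:142387828-142387947, minus strand: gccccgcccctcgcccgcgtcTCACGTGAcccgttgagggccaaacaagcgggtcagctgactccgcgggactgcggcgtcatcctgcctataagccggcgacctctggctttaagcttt
Naglu, chr11:101069974-101070093, plus strand: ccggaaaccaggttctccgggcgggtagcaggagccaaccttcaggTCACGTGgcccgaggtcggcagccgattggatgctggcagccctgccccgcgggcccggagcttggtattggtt
In Ctsd the core is found on both strands and the matches overlap. In the 300-base window the core stood in 5 of 17 risen lysosomal promoters (29.4%), in 16 of all 68 of that list (23.5%), in 8.76% of all risen, 4.49% of all fallen and 5.12% of all tested promoters. The share among risen members is close to that of the list as a whole, and neither was tested.

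Autophagy and mitochondrial breakdown genes, both lists also added after seeing the risen genes, moved in the same direction. Among 53 autophagy genes 11 rose and 0 fell, where 1.21% of all tested rose, with a median of 0.18. Map1lc3b, the LC3 protein of the autophagosome membrane, had a difference of 0.40, Atg12, part of the conjugate that lipidates LC3, 0.50, Wipi2, which recruits that conjugate, 0.35, and Atg2b, a lipid transfer protein, 0.72. The other Wipi2 probe went the other way, with -0.22, and did not pass the adjusted threshold. Among 47 genes for the breakdown of branched-chain amino acids and fatty acids 8 rose and 0 fell, with a median of 0.16. Aldh6a1, an enzyme of valine breakdown, read 1.46, 1.81, 1.23 and 1.58 at 24 h, against 0.63, 0.74, 0.22 and 0.96 at 6 h (log2 difference 0.88 ± 0.14 (SE), adjusted p = 0.0137). The 24 h arrays all exceeded the 6 h arrays. Bckdha, a subunit of the branched-chain ketoacid dehydrogenase, was 0.43. Without 24 h replicate 1 neither list had a member past the threshold.

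Every tested member of 20 lists is plotted by its time difference.

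**Figure D3:**
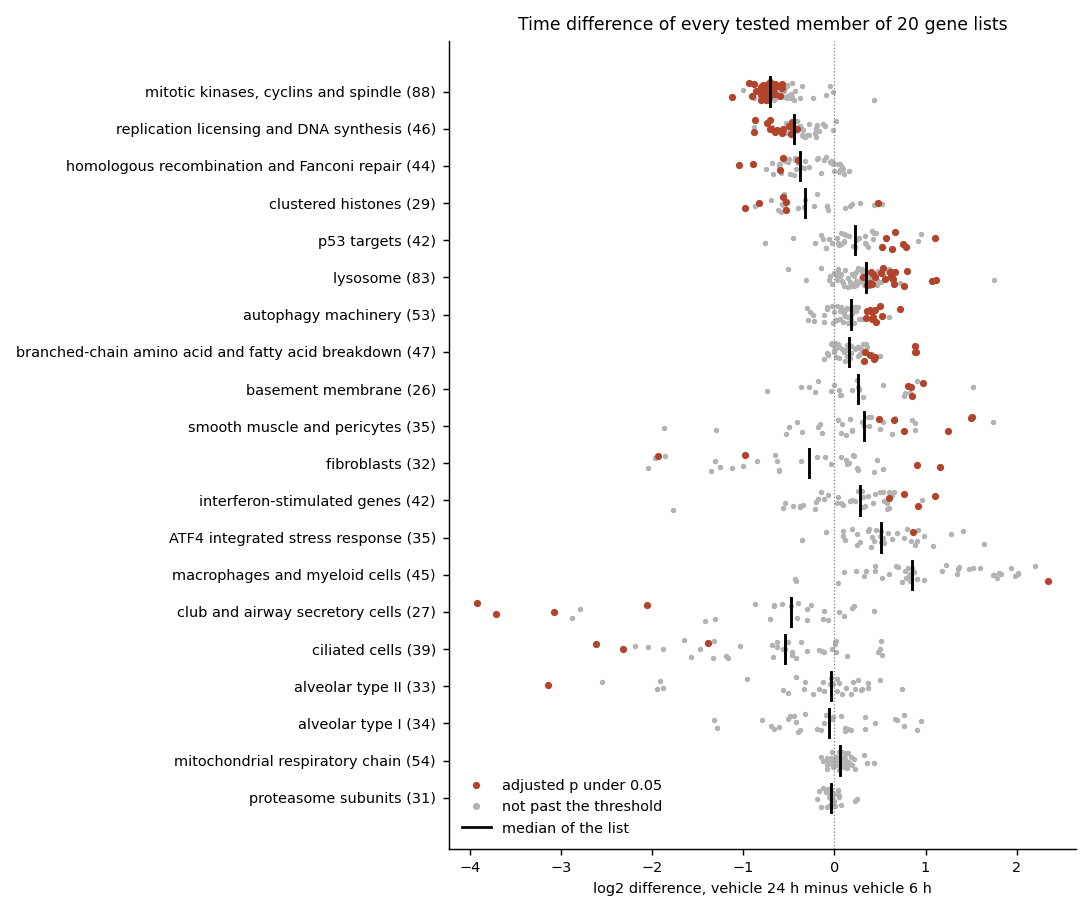
Each point is 1 tested gene of the list named at the left (number tested in parentheses), placed by its log2 difference, vehicle 24 h minus vehicle 6 h; red points have an adjusted p under 0.05, grey points do not, and the black bar is the list's median. Of the 88 mitotic genes 87 lie left of 0, with a median of -0.71 and 43 red points, and of the 83 lysosomal genes 76 lie right of 0, with 21 red points. The median over all genes tested was 0.01.

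A few airway cell genes fell, by large amounts. Of 27 tested genes of club and airway secretory cells 4 fell and 0 rose, where 0.914% of all tested fell. The median was -0.48, or -0.26 without 6 h replicate 4. Scgb3a1, a secretoglobin of airway secretory cells, read -2.89, -3.91, -3.37 and -2.02 at 24 h, against 0.95, -0.39, -0.44 and 2.56 at 6 h (log2 difference -3.72 ± 0.69 (SE), adjusted p = 0.0218). Bpifa1, an antimicrobial protein of airway lining fluid, read -4.47, -5.83, -3.20 and -3.42 at 24 h, against -0.06, -1.97, -1.03 and 1.80 at 6 h (log2 difference -3.92 ± 0.87 (SE), adjusted p = 0.0385) and was detected on 3 of the 4 arrays at 24 h and on all 4 at 6 h. Replicate 4 at 6 h was the highest for both, no 24 h array reached any 6 h array, and without that replicate the differences were -2.98 (adjusted p = 0.0402) and -3.03 (adjusted p = 0.0761). Ltf, lactoferrin, was -2.05 (adjusted p = 0.0215). Tff1 was -3.07, and its probe lay above background on 1 of 4 arrays at 24 h. That probe is placed on mm9 chromosome 5 and the gene on chromosome 17 in RefSeq. The name is therefore uncertain, and the fall counted here may be of another gene. A second probe that carries the name gave -3.19, which leaves the doubt about the name in place. Scgb1a1, the club cell secretory protein, read 2.51, 1.22, 4.26 and 3.56 at 24 h, against 6.13, 4.57, 4.84 and 7.53 at 6 h; its difference of -2.88 did not pass (adjusted p = 0.0764). All its 24 h values lie below the lowest 6 h value.

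Of 39 ciliated cell genes 3 fell and 0 rose, where 0.914% of all tested fell. The median was -0.54, with -0.15 on slide 1, -0.79 on slide 2 and -0.23 without 6 h replicate 4. Ccno, a cyclin-like protein needed to make many basal bodies, read -3.35, -2.81, -2.80 and -2.19 at 24 h, against -1.56, -1.49, -1.19 and -1.35 at 6 h (log2 difference -1.39 ± 0.24 (SE), adjusted p = 0.017). Myb, a transcription factor of early ciliated cells, was -2.32 (-1.90 without 6 h replicate 4, adjusted p = 0.106) and was detected on 2 of the 4 arrays at 24 h and on all 4 at 6 h. Zfp474 was at least 5.09-fold lower at 24 h, with 0 of 4 arrays above background against 2 of 4. Foxj1, the master regulator of motile cilia, was -0.54 (adjusted p = 0.412) with overlapping groups. Mean levels of the list were between -2.91 and -2.49 at 24 h, against -2.60 to -2.37 on 3 arrays at 6 h and -0.84 on replicate 4. Leaving out that array left 1 fallen gene in this list and 2 in the airway list, and without 24 h replicate 1 the counts were 0 and 1. The airway list also had 1 without 24 h replicate 2 or 6 h replicate 1, and the ciliated list 1 without either of these.

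Among type II markers a single gene passed. Of 33 type II genes 1 fell and 0 rose, with a median of -0.03, which was 0.27 on slide 1, -0.74 on slide 2 and 0.08 without 6 h replicate 4. That gene, Sftpa1, encoding surfactant protein A, read -4.67, -4.18, -5.74 and -5.28 at 24 h, against -1.76, -1.67, -2.44 and -1.44 at 6 h (log2 difference -3.14 ± 0.40 (SE), adjusted p = 0.00891), 8.82-fold lower at 24 h, and was detected on 3 of the 4 arrays at 24 h and on all 4 at 6 h. Without 6 h replicate 4 the difference was -3.15. No array at one time overlaps with the other, and it passed with any 1 vehicle array left out. Sftpc, encoding surfactant protein C, the most specific type II marker, read 1.97, 0.55, 2.45 and 0.47 at 24 h, against 3.26, 3.61, 3.61 and 5.16 at 6 h. Its difference of -2.55 ± 0.79 (SE) did not pass (adjusted p = 0.119), although all 24 h values were below all 6 h values. Sftpb was -1.88 (adjusted p = 0.106) and Sftpd, a collectin, -0.57 (adjusted p = 0.813). Abca3, the lamellar body lipid pump, was -0.02 ± 0.21, Lamp3 -0.12 ± 0.08 and Napsa, the protease that processes surfactant protein B, 0.09 ± 0.66 (SE). In limma, 2 of the 33 type II genes were higher and 5 lower at an unadjusted p under 0.05. The shares over all tested were 9.16% and 7.52% at that p, and 1.21% and 0.914% at the adjusted threshold.

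For type I cells, the flat cells of gas exchange, 0 of 34 genes passed in either direction with limma. At an unadjusted p under 0.05, 3 were higher and 1 lower, where 9.16% and 7.52% of all tested were. The median was -0.06, which was 0.34 on slide 1, -0.42 on slide 2 and 0.20 without 6 h replicate 4. Ager, the type I marker RAGE, read 1.45, -1.10, 2.42 and 0.42 at 24 h, against 0.18, -0.11, 0.09 and 3.16 at 6 h. Replicate 4 at 6 h and replicate 3 at 24 h are high, the groups overlap, and the difference was -0.03 ± 1.20 (SE), or 0.77 without 6 h replicate 4. Hopx was -0.51 ± 0.82, Aqp5, the water channel, -0.33 ± 0.61, and Pdpn 0.15 ± 0.13 (SE). Krt8, a keratin of transitional alveolar cells, was -0.27 (adjusted p = 0.487). Differences of this size are within the spread between arrays here, which does not show that the levels are equal.

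**Figure D4:**
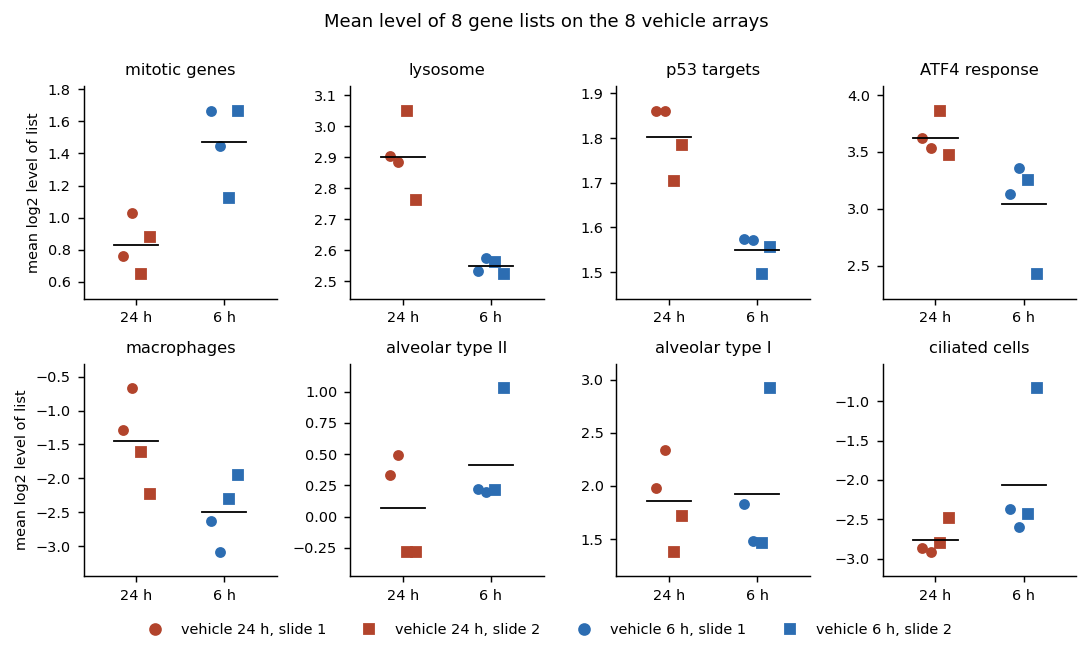
Each panel plots the mean log2 level of a list's tested genes on the 4 vehicle 24 h arrays (left, red) and the 4 vehicle 6 h arrays (right, blue), with circles for slide 1, squares for slide 2 and a bar at the mean of 4. Mitotic genes lie between 0.65 and 1.03 at 24 h, against 1.12 to 1.67 at 6 h, lysosomal genes between 2.76 and 3.05 at 24 h, against 2.52 to 2.58 at 6 h, and replicate 4 at 6 h stands high for alveolar and ciliated genes.

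Basement membrane genes rose in part. Of 26 tested 4 rose and 0 fell, where 1.21% of all tested rose, with a median of 0.26. Col4a1, a chain of type IV collagen, read 6.28, 6.36, 6.08 and 6.23 at 24 h, against 5.47, 5.47, 5.19 and 4.96 at 6 h (log2 difference 0.97 ± 0.15 (SE), adjusted p = 0.0126). Its partner Col4a2 read 5.80, 5.85, 5.53 and 5.79 at 24 h, against 5.02, 4.94, 4.82 and 4.78 at 6 h (log2 difference 0.85 ± 0.14 (SE), adjusted p = 0.0156), and neither gene overlaps between the times. Hspg2, perlecan, was 0.81 (adjusted p = 0.0174) and Nid1, nidogen, 0.84 (adjusted p = 0.0238). Of 31 interstitial collagen genes 2 rose, Col8a1 (1.28) and Loxl3, a collagen crosslinking enzyme (0.65). Mmp2, which degrades type IV collagen, rose by 1.22 while Mmp3, stromelysin, read -0.98, 0.30, -0.01 and 0.29 at 24 h, against 2.63, 1.82, 1.23 and 2.79 at 6 h (log2 difference -2.22 ± 0.43 (SE), adjusted p = 0.0238). Every 24 h value of Mmp3 is below every 6 h value. The basement membrane count was 0 without 24 h replicate 1 and 3 or 4 without any other vehicle array.

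Mesenchymal markers were measured beside them. Of 35 smooth muscle and pericyte genes 6 rose and 0 fell, where 1.21% of all tested rose and 0.914% fell. The median was 0.33, or 0.15 without 6 h replicate 4. Notch3, the receptor of mural cells, read -0.53, -0.70, -0.62 and -0.88 at 24 h, against -2.38, -1.61, -1.91 and -1.79 at 6 h (log2 difference 1.24 ± 0.15 (SE), adjusted p = 0.00755), all 24 h values above all 6 h values, and passed with any 1 vehicle array left out. Des, desmin, was 1.50, Dmpk 1.51, Myl9, a myosin light chain, 0.76, Itga7, a laminin receptor, 0.66, and Tpm2, a tropomyosin, 0.49. Acta2, the smooth muscle actin, read 8.99, 9.18, 8.97 and 8.81 at 24 h, against 8.67, 8.78, 8.98 and 8.05 at 6 h, a difference of 0.37 that did not pass (adjusted p = 0.314) and whose groups overlap. Of 32 fibroblast genes 2 rose, Thy1 (log2 difference 1.16 ± 0.22 (SE), adjusted p = 0.0236) and Fbln2 (log2 difference 0.91 ± 0.21 (SE), adjusted p = 0.0477), and 2 fell, Inmt (-0.98) and Cilp (log2 difference -1.94 ± 0.27 (SE), adjusted p = 0.0119). Without 6 h replicate 4 neither Thy1 (1.04, adjusted p = 0.0648) nor Fbln2 (0.68, adjusted p = 0.0832) passed, nor did Inmt (-0.95, adjusted p = 0.105), and Cilp did (-1.81). Without 24 h replicate 1, 2 or 3 or 6 h replicate 1 no fibroblast gene rose. Mean levels of the smooth muscle list ran from 1.17 to 1.62 at 24 h and from 0.74 to 1.32 at 6 h, and of the fibroblast list from 0.80 to 1.62 at 24 h and from 1.49 to 1.58 at 6 h. Without 6 h replicate 4, 2 smooth muscle genes rose and 1 fell, and without 24 h replicate 1 or 6 h replicate 1 a single one rose. The count was 2 without 24 h replicate 2, and 3 without 24 h replicate 3 or 4 or 6 h replicate 3. The part of these cells in the collagen values was not tested.

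Macrophage markers were mostly higher at 24 h, with 1 of 45 past the threshold, where 1.21% of all tested rose. Of 45 tested 43 were above 0, where the median over all genes tested was 0.01. The list's median was 0.86, which was 2.17 on slide 1 and 0.26 on slide 2. Cd53, a tetraspanin of white blood cells, read -1.94, -1.48, -1.95 and -2.14 at 24 h, against -4.74, -3.55, -4.67 and -3.92 at 6 h (log2 difference 2.34 ± 0.28 (SE), adjusted p = 0.006), 5.07-fold higher at 24 h, with no overlap, and passed with any 1 vehicle array left out. Marco, a scavenger receptor of alveolar macrophages, read 2.18, 0.46, 3.19 and -0.64 at 24 h, against -0.91, -0.52, -1.16 and -0.27 at 6 h. The replicates of slide 1 are high at 24 h and the groups on slide 2 overlap; its difference of 2.01 did not pass (adjusted p = 0.239). Chil3 (1.98, adjusted p = 0.232) and Siglecf (2.20, adjusted p = 0.235) had the same layout, C1qa lay above background on 0 of 4 arrays at either time, and Csf1r was 0.04. Mean levels of the list were -2.24 to -0.67 at 24 h and -3.08 to -1.96 at 6 h. Lysosomal genes are abundant in macrophages, and the part of macrophage RNA in the lysosomal values was not tested.

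Interferon-stimulated genes rose in 4 of 42 and fell in 0, where 1.21% of all tested rose and 0.914% fell. The median was 0.28. Isg15, a ubiquitin-like protein, read 1.91, 2.69, 1.56 and 2.45 at 24 h, against 0.96, 1.32, 0.74 and 1.18 at 6 h (log2 difference 1.10 ± 0.16 (SE), adjusted p = 0.0124). It was higher on all 24 h arrays and passed with any 1 vehicle array left out. Ifi44 was 0.92 (adjusted p = 0.0137), Irf7, the interferon regulatory factor, 0.77 (adjusted p = 0.0385), and Ifi27 0.60 (adjusted p = 0.0306). With normexp background correction the median of the list was 0.02 and 4 members passed. The count was 1 without 24 h replicate 1, and 2 without 24 h replicate 2 or 4 or 6 h replicate 1 or 3. Of 39 chemokine, interleukin and growth factor genes 1 rose, Cx3cl1 (log2 difference 0.67 ± 0.15 (SE), adjusted p = 0.0445), and 2 fell, Tslp (-0.93, adjusted p = 0.0338) and Cxcl5. Cxcl5, a neutrophil attractant made by type II cells, read -2.86, -3.78, -2.33 and -2.14 at 24 h, against 0.36, -1.27, -1.06 and 1.33 at 6 h (log2 difference -2.62 ± 0.55 (SE), adjusted p = 0.0319). The groups do not overlap, and without 6 h replicate 4 the difference was -2.09 (adjusted p = 0.0712). In the 8 fits that leave out 1 vehicle array, Cxcl5 passed in 3, Cx3cl1 in 1 and Tslp in 0. Without the slide block 0 of the 39 passed.

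Amino acid stress genes leaned upward. Of 35 genes of the ATF4 response 1 rose, Pck2 (log2 difference 0.86 ± 0.20 (SE), adjusted p = 0.0474), a mitochondrial enzyme of phosphoenolpyruvate synthesis, and 0 fell. Yet 33 of 35 were above 0, with a median of 0.52 where the median over all genes tested was 0.01. At an unadjusted p under 0.05, 21 were higher, where 9.16% of all tested were. Mean levels of the list were 3.47 to 3.86 at 24 h, against 3.13 to 3.36 on 3 arrays at 6 h and 2.42 on replicate 4, and the median was 0.36 without that array. On slide 1 the median was 0.29 and on slide 2 it was 0.79. No member passed without the slide block, with quantile normalization or with median centring, and 5 did with normexp. Leaving out 1 vehicle array gave 0 called members, except 3 without 6 h replicate 2, and Pck2 passed in 1 of these 8 fits. Sesn2, a sestrin, was 0.46 and did not pass (adjusted p = 0.0538). Of 20 cytosolic aminoacyl tRNA synthetases, which load amino acids on tRNA, 1 rose, Farsb (0.39, adjusted p = 0.0497), with a median of 0.36. Among 27 genes of the endoplasmic reticulum unfolded protein response 1 rose, the chaperone Dnajb9 (0.43, adjusted p = 0.0215), with a median of 0.01. The other Dnajb9 probe gave -0.06. Fos was the single called gene of 27 immediate early genes (-0.64, adjusted p = 0.0338). The single calls in these lists stand beside 1.21% of all tested that rose and 0.914% that fell.

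Several lists tied to other functions of these cells held no called gene in limma: 36 NRF2 antioxidant genes (4 higher and 6 lower at an unadjusted p under 0.05), 54 respiratory chain genes (6 and 0), 31 proteasome genes (2 and 1), 24 cholesterol genes (1 and 1), 37 genes of surfactant lipid and lamellar bodies (5 and 0), 46 lung epithelial transcription factors (5 and 3) and 20 circadian genes (3 and 2). Of all tested, 9.16% were higher and 7.52% lower at that p. The medians of these lists lay between -0.06 and 0.12, and that of the cholesterol genes, 0.12, was -0.12 without 6 h replicate 4.

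Large changes outside the lists given above were found in genes of varied function. A further list, of annexins, cathepsins and Ctla2 inhibitors, held 7 risen and 1 fallen of 30 tested, with a median of 0.07. By comparison, 1.21% of all tested rose and 0.914% fell. With 1 vehicle array left out, that list held 0 to 6 called genes. Mgmt, which repairs alkylated guanine in DNA, read 3.33, 3.15, 3.42 and 3.31 at 24 h, against 2.12, 2.09, 2.22 and 2.37 at 6 h (log2 difference 1.10 ± 0.10 (SE), adjusted p = 0.000771). Ctla2a and Ctla2b, near-identical inhibitors of cathepsins whose probes may share signal, had differences of 1.73 and 1.58 (adjusted p = 0.014 and 0.0124). Gabrb1, a GABA receptor subunit, was 2.22 (adjusted p = 0.0122), Drd4, a dopamine receptor, 1.40, and Grik4, a glutamate receptor subunit, 1.34. Mgmt is separated between the times by more than the range within either. Among the falls, Anxa10, an annexin, read -2.07, -2.03, -2.39 and -1.07 at 24 h, against 1.25, 0.94, 0.10 and 1.32 at 6 h (log2 difference -2.79 ± 0.58 (SE), adjusted p = 0.031), without overlap. Penk, preproenkephalin, was -1.26 and Krtap1-5, a hair keratin-associated protein, -2.24.

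The other genes among the 20 largest rises were Klra4, a receptor of natural killer cells whose near-identical family members make the value uncertain (2.14), Tmem179 (1.63), Serpina5, a protease inhibitor detected on 4 arrays at 24 h and 1 at 6 h (1.36), Efhd1 (1.29), Nacad (1.23), Srpx (1.22), Dysf, dysferlin of membrane repair (1.21), and Ogdhl, detected on 2 of 4 arrays at 6 h (1.19). The other genes among the 20 largest falls were Cwh43 (-2.34), Usp51, a deubiquitinase detected on 1 of 4 arrays at 24 h (-1.74), Ms4a4d (-1.71), Tmprss13, a membrane serine protease (-1.60), Tmem204 (-1.51) and Dynap (-1.30). Rnf186, a ubiquitin ligase, was at least 2.79-fold lower at 24 h, with 0 of 4 arrays above background against 3 of 4. AI593442, which carries a clone-like symbol and is named here after its value was seen, had the largest rise among genes with a symbol, 2.78 (adjusted p = 0.0301), while its other probe gave 0.96 (adjusted p = 0.123).

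Genes tied to senescence and to other responses moved in few cases, where 1.21% of all tested rose and 0.914% fell. A single call in a list of this size is close to those shares. Of 36 senescence-associated secretory and marker genes 1 rose, Glb1, and 3 fell, Hmgb1, Mmp3 and Hmgb2, with a median of -0.06. Of 38 TGF-beta response genes 1 rose, Ltbp3, which stores latent TGF-beta in the matrix (0.53), and 1 fell, Id3, an inhibitor of differentiation factors (-0.48). Of 35 targets of hypoxia-inducible factor 1 rose, Pfkfb3, an activator of glycolysis (0.39, adjusted p = 0.0494), with a median of 0.15. The other Pfkfb3 probe gave 0.12. With 1 vehicle array left out, the called genes numbered 0 to 4 for senescence and 0 to 2 for TGF-beta. They numbered 0 to 3 for hypoxia-inducible factor targets and 0 to 1 for endothelial genes. Among markers of other cell types, 1 of 27 endothelial genes rose, the junction protein Esam (0.82), while 0 of 18 lymphocyte, 0 of 16 mesothelial and 0 of 15 basal cell genes passed in limma, with 2 higher and 1 lower, 2 and 0, and 1 and 0 at an unadjusted p under 0.05. Of all tested, 9.16% were higher and 7.52% lower at that p.

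The same times were measured in NaHS arrays, which share no array with the vehicle comparison but share its slides and rows and its estimate of the spread. There 33 of 33261 genes passed (0.0992%), 27 higher and 6 lower, and 24 were also called in vehicle, 72.7% of the NaHS list and 3.40% of the vehicle list. Of the 705 genes called in vehicle 693 (98.3%) had the same sign in NaHS, against 64.3% of all tested, and 546 (77.4%) also had an unadjusted p under 0.05 with that sign, against 11.2% of all tested. Median differences in NaHS were 0.43 for the 401 risen and -0.34 for the 304 fallen genes, where vehicle had 0.63 and -0.66; the vehicle values chose these genes. Tested directly, the difference between the vehicle and NaHS time effects was called for 0 genes (0%) by limma, with 1560 at an unadjusted p under 0.05 and a smallest adjusted p of 0.973. Birc5 had -0.44 in NaHS, Cdkn1a 0.59, Cpq 0.74 (adjusted p = 0.0165), Cd53 1.66 (adjusted p = 0.0498), Scgb3a1 -2.25 and Sftpa1 -2.36 (adjusted p = 0.0526).

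**Figure D5:**
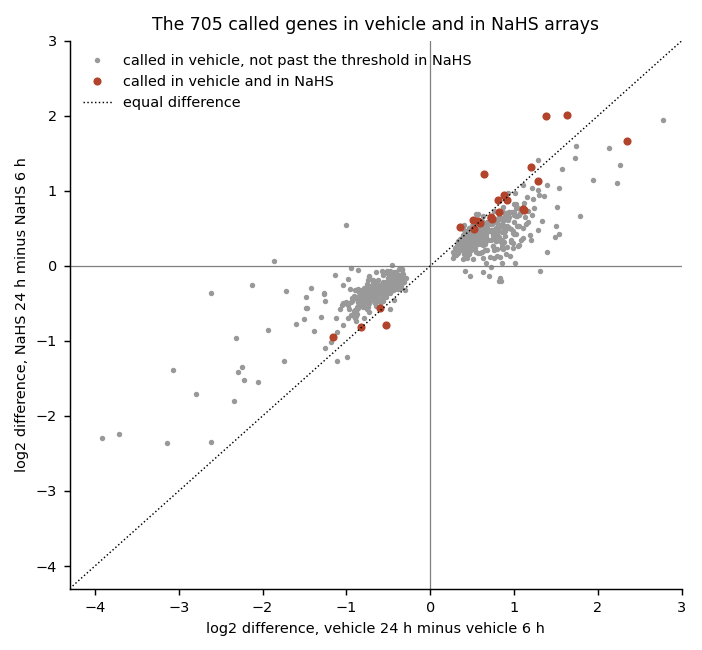
Each point is 1 of the 705 genes called in vehicle, placed by its log2 difference 24 h minus 6 h in vehicle (horizontal) and in NaHS (vertical); red points were called in both and the dotted line marks equal differences. Of the points 693 have the same sign on both axes, with medians in NaHS of 0.43 for the 401 risen genes and -0.34 for the 304 fallen.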

How the data were processed

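The deposited scanner files hold the intensity of each spot, and per the file headers the authors' Agilent Feature Extraction 10.7.3.1 had subtracted background, detrended the signal within each array and placed probes on mm9. The deposited table of log2 values, whose steps are not given in the sources used here, served as an alternative. Here log2 of the processed signal minus the array's 75th percentile was taken over 59305 non-control spots, 1874 of which were left out as outliers, and the brightest probe stood for a gene. Probes well above background on at least 4 of 16 arrays were kept. Gene names came from RefSeq by accession (27325 probes), symbol (3523) or older symbol (551), and from the array design (609), and 23673 probes had none. The fit was limma 3.58.1 in R 4.3.3 (lmFit and eBayes) of 4 group means over 16 arrays with slide as a block, with Benjamini-Hochberg adjustment over 33261 genes or unnamed probes, and it was tested on simulated data.

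Same-numbered samples correlated at 0.545 to 0.662, and at -0.107 to 0.0987 after slide was removed, and since the numbers are nested in slide, pairing by number cannot be told apart from slide. The members and lists were chosen with earlier results of these data known. Named were the 20 largest rises and falls with a usual symbol, detected on at least 3 of 4 arrays of the higher group, up to 8 called members of each list and a set of markers; further list members, and cell type markers such as Marco and Csf1r, were named after their values were seen. Array number limits precision. Alternatives changed 1 choice at a time (background, scaling, filter, probe rule, block, arrays in the fit). Leaving out both arrays numbered 4, and lists recomputed without each array, were chosen after seeing the data.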

Additional observations from a re-analysis of the deposited data

Results flagged for a closer look

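Among 420 groups of 4 arrays (genes named here and list means), 28 (6.67%) held 1 array whose gap to the others was large for the group's range by Dixon's criterion, and chance gives about 1 in 20. Replicate 2 at 24 h was high for the lysosomal genes Ctsa (6.31, against 5.49 to 5.62 on the others), Gaa (5.74, 4.97 to 5.04), Grn (5.21, 4.63 to 4.69), Naglu (2.86, 2.20 to 2.31) and Tpp1 (2.21, 1.44 to 1.46). The same array was low for Ccng1 (4.23), Dynap (-5.32), Sulf2 (2.33) and the mean of the EGF family list (-0.40). Replicate 1 at 24 h was high for Tff1 (-4.78), replicate 4 at 24 h was high for the airway secretory list (-1.97) and low for the tRNA synthetase list (3.85), and replicate 3 at 24 h was high for the neuroendocrine list (-1.01).

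Replicate 4 at 6 h was high for Ager (3.16, against -0.11 to 0.18 on the others), Abca3 (3.80, 2.85 to 2.99), the type II list (1.03, 0.20 to 0.22) and the ciliated list (-0.84, -2.60 to -2.37). It was low for Cdkn2a (0.39, 2.08 to 2.26), Fbln2 (6.18, 7.13 to 7.28), Atg12 (2.60) and the lists of INK4 and KIP inhibitors (2.06), TGF-beta response (3.60), fatty acid synthesis (1.98) and hypoxia-inducible factor targets (3.03). Replicate 2 at 6 h was low for Gen1 (-2.51), H3c1 (-2.55) and the replication list (2.15), and replicate 1 at 6 h was high for Penk (3.03).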

How the results depend on the processing

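With 705 genes called in vehicle, the count was 203 without the slide block, 309 with no filter on dim probes, 1311 with probes above background on all 8 vehicle arrays and 119 without both arrays numbered 4. With only the 8 vehicle arrays in the fit it was 0 by limma (3869 at an unadjusted p under 0.05). Within slide 1 it was 0 (4357 at an unadjusted p under 0.05) and within slide 2 it was 1 (3172), with 2 arrays a group. Leaving out 1 vehicle array gave 37 to 828. The replicate block in place of slide gave 885, normexp 1031, quantile normalization 681, median centring 479 and the mean of a gene's probes 622, while 684 came from the deposited values. The share called higher was 56.9%, and 51.2% after quantile normalization. The 33 genes called in NaHS became 9 without the slide block, 140 with normexp and 15 with quantile normalization, and 35 with the replicate block. The share with the same sign in NaHS was 100% without the slide block, 99.3% with normexp and 98.5% with quantile normalization, against 98.3%. The difference between the time effects held 0 called genes in each alternative run. Of the 705, 702 kept their sign with normexp, 704 with quantile normalization and with the deposited values, and 701 with the mean of a gene's probes. With probes above background on all 8 vehicle arrays 653 of the 654 present did, and in the other alternatives all 705 did. All these fits reuse arrays that chose the genes, and some take the same differences, so kept signs are no separate evidence. The median of 19 of 63 lists changed sign when 1 array was left out. The causes of these moves were not tested.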

Other observations

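Probes that the array describes as lincRNA, long intergenic noncoding RNA, made up 99 of the 705 called features (14%), 74 higher and 25 lower at 24 h. Of all 33261 features tested, 9955 (29.9%) were such probes. Of 29 genes of epidermal differentiation 2 rose, Ivl, which encodes involucrin of the cornified envelope, and Ly6d, a surface marker of stratified epithelium, with a list median of -0.01. Of 34 sarcomere and muscle structure genes 2 rose, Dysf, which encodes a membrane repair protein, and Myoz1, which encodes a Z-disc protein, with a list median of -0.30. Btc, a ligand of the EGF receptor, was the called gene of 13 in the EGF family and fell. Cldn23, a claudin of tight junctions, was the called gene of 28 and fell. Over all 33261 features, 1.21% were called higher and 0.914% lower. Sodium and chloride transport held 0 called genes of 25 in limma, with a median of -0.28 that was 0.09 on slide 1 and -0.64 on slide 2. At an unadjusted p under 0.05, 0 were higher and 3 lower, where 9.16% and 7.52% of all tested were.

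Of the difference between the vehicle and NaHS time effects, Cd8a, Spats1, Dio3os, Iqgap2 and Hsf4 had the smallest p among named genes, and none of the 5 passed the adjusted threshold.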
